A study of Mus musculus with 2 samples.

Results

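The 10 genes described here encode the EGR zinc finger transcription factors (Egr1, Egr2 and Egr3), the immediate early response proteins (Ier2, Ier3 and Ier5), the mRNA-destabilising zinc finger proteins ZFP36 and ZFP36L1, the antiproliferative adaptor BTG2 and the transcription factor MYC. They were chosen by gene name, with their values on these arrays already known, and each was read through every probe that carries its name. All 10 are on the array, with 11 probes among them, out of 30153 genes in all. RNA of mature hepatocytes (MHs) from healthy livers was compared with RNA of Sox9+EpCAM- cells from livers injured by a diet with DDC (diethoxycarbonyl-dihydrocollidine), which damages bile ducts. Per the paper's methods, livers of Sox9-EGFP mice were used in both groups, and GFP from this reporter stood for Sox9 in the sort. MHs were collected by low-speed and Percoll centrifugation and were not sorted, whereas Sox9+EpCAM- cells passed through FACS as GFP+EpCAM- cells, so sorting and diet differ together and cannot be told apart. The age and number of the mice and the length of DDC feeding for these arrays are not given in the sources used here.

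The arrays are of the Agilent one-colour kind (Cy3), and each group has 1 array. No value therefore has a replicate error or a test, and differences are described by their size, with 4-fold as the rule. Of 43020 spots that are not controls, the share well above background was 64.0% for MHs and 74.8% for Sox9+EpCAM- cells, and 0 were saturated. Male sex is given for both samples. Both probes of Xist, however, passed the background flag in the library labelled MH and not in the other, and of 5 probes of 4 Y-linked genes 0 passed it for MHs and 4 for Sox9+EpCAM- cells, so these genes go against the sex label of the MH sample. By these probes sex also differs between the arrays, together with sorting and diet, and cannot be told apart from them. Each hepatocyte marker of 8 (among them Alb, Hnf4a and Ttr) was well above background on both arrays. The Sox9 probe, printed in 10 spots, did not pass the flag for MHs and averaged 60.2 for Sox9+EpCAM- cells. Epcam, the surface marker by which cells were left out of the sort, read 139 for MHs and 2770 for Sox9+EpCAM- cells, 13.3-fold higher. There is no array of EpCAM+ cells here to set this level against, so the EpCAM- label was not tested. By quantitative PCR relative to EpCAM+ cells, the paper reports Epcam as barely expressed in its sorted fractions of Sox9+EpCAM- cells.

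Early response genes are transcribed within minutes after a growth factor, cytokine or stress signal, from factors already present in the cell, and need no new protein. MAP kinase cascades act on serum response factor, which binds the CArG box, and on CREB, which binds the cAMP response element. Their mRNAs decay fast, in part because ZFP36 proteins bind AU-rich elements in such messages and recruit the CCR4-NOT deadenylase, to which BTG2 also binds. In the liver these genes are known as the priming response that follows partial hepatectomy, and also as genes that respond when tissue is digested into single cells.

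Promoters are shown since early response genes are known for shared elements close to the start site. The RefSeq table (GRCm38.p6) holds promoter windows of 300 bases, from 250 before to 50 after the start site, for 6 of the 10 genes, namely Ier3, Ier5, Zfp36, Zfp36l1, Btg2 and Egr2. In the windows of Zfp36 and Egr2 the CArG box was found, which 1.63% of all 32851 windows hold on either strand. In Zfp36 it begins 58 bases before the start site, and in Egr2 4 of its 5 windows hold a box, 3 of them the same one and 1 another, 72 bases before its start site. The cAMP response element TGACGTCA was found in Btg2 alone among the 6 genes, 166 bases before the start site, and 1.79% of all windows hold it. The GC box GGGCGG, which 35.7% of windows hold, was found in 5 of the 6 genes, all but Zfp36l1. The window of Zfp36l1 holds TATAAA, 29 bases before the start site, as do 13.6% of windows, and the ETS motif CCGGAA, held by 14.9%, was found in Zfp36 and Egr2. The EGR motif GCGTGGGCG, held by 0.612%, was found in 0 of the 6. Motifs were searched on both strands, and a match describes letters and does not show binding. The 250 bases before the start site are printed for the gene of rank 1 by difference and for 3 genes with different motifs, and 30 bases around the shared box for Egr2, 5′ to 3′ along the gene. Capitals mark the GC box in Ier3 (chr17:35821463-35821712, plus strand), the CArG box in Zfp36 (chr7:28379229-28379478, minus strand) and Egr2 (chr10:67537787-67537816, plus strand), the cAMP response element in Btg2 (chr1:134079156-134079405, minus strand) and TATAAA in Zfp36l1 (chr12:80113014-80113263, minus strand).
Ier3: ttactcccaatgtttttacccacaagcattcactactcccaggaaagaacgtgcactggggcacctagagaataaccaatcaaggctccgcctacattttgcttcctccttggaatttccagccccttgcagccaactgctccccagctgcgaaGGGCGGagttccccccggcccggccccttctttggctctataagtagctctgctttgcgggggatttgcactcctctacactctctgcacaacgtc
Zfp36: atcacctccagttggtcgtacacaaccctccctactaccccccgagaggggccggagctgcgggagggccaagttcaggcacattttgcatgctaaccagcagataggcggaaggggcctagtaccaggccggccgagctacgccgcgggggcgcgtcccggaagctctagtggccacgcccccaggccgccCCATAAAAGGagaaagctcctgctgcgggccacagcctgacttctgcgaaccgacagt
Egr2: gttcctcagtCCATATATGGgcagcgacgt
Btg2: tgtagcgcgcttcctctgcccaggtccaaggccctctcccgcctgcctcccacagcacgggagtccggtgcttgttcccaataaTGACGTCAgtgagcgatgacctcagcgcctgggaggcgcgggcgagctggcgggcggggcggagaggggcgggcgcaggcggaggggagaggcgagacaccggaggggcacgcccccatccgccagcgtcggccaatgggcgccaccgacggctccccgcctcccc
Zfp36l1: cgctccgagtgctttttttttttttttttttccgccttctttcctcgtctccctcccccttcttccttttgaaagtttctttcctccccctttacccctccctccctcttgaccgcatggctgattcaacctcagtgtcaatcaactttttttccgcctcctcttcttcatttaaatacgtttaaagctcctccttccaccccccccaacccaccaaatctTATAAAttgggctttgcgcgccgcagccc

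Over all genes of the window table with a difference, 17 of 211 with a CArG box (8.06%) and 749 of 12132 without it (6.17%) had a level at least 4-fold higher in the Sox9+EpCAM- sample. For the GC box these shares were 7.35% of 7010 genes with it and 4.71% of 5333 without it. They were 7.51% and 6.17% for the cAMP response element, and 7.91% and 6.19% for the EGR motif. The shares ran the other way for the ETS motif (5.5% with it, 6.43% without) and for TATAAA (6.06% and 6.23%). Zfp36 and Egr2 are among the genes counted with a CArG box. In genomic span the 10 genes were short, from 1199 bases for Ier3 to 7720 for Egr2, with a median of 4020.5 bases. The median span was 20256 bases over 14587 protein-coding genes with a difference, of which 24.8% were no longer than Egr2, and it was 21319 bases over the 944 such genes that were at least 4-fold higher. Short spans are not particular to the 10 genes. Of the lists described below, the median was 4987.5 bases for messages bound by ZFP36 proteins, 5339 for other early response genes and 5744 for near relatives. It was 10970 or more for the other lists. Neither motif nor span was used to choose the 10 genes.

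All 10 genes were brighter on the Sox9+EpCAM- array, and 9 of them by at least 4-fold, while 5.59% of 23424 genes with a difference were at least 4-fold higher. At a threshold of 2-fold the count was 10, against 14.2% of all genes, and at 10-fold it was 8, against 1.55%. None of the 10 was lower, while 5.57% of all genes were at least 4-fold lower. Since the genes were picked with this contrast known, nothing is read from that count. Intensities are given below as the scanner software processed them, in arbitrary units and not scaled, with the error that the scanner software estimates for the spot. Fold changes were taken after each array was scaled to its 75th percentile (741 for MHs, 1110 for Sox9+EpCAM- cells), so that a fold is smaller than the plain ratio of the intensities. All 11 probes were printed in 1 spot each, and for other probes printed at least 8 times the median SD between spots was 0.079 on the log2 scale on either array.

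**Figure D1:**
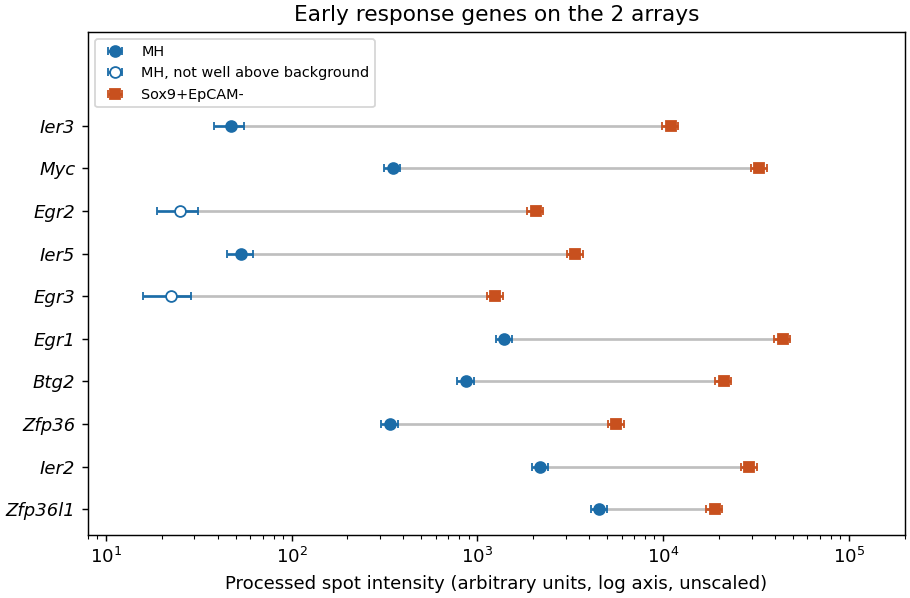
Processed spot intensity of each of the 10 genes (log axis, arbitrary units, not scaled) on the MH array (circles) and the Sox9+EpCAM- array (squares), ordered by log2 difference, with bars for the spot error estimated by the scanner software. The Sox9+EpCAM- spot is brighter for every gene, the 2 open circles (Egr2 and Egr3) are MH spots not well above background, and the brightness of different probes cannot be compared.

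Among the EGR factors, which bind GC-rich sites and carry early signals to later target genes, Egr1 was the one measured on both arrays. The Egr1 probe (chromosome 18, 35024395 to 35024454, mm9) read 1400 ± 140 for MHs against 44100 ± 4410 for Sox9+EpCAM- cells. Egr1 was 21.0-fold higher, a log2 difference of 4.39, and ranked 44 among the 19232 genes measured on both arrays. The Egr1 spot of MHs passed the background flag, so its value rests on no bound. Egr2, known for its part in hindbrain and Schwann cell development, read 25.1 ± 6.35 for MHs, where 27.8 was the lowest signal that passed the background flag, and 2060 ± 206 for Sox9+EpCAM- cells. Against that lowest signal Egr2 was at least 49.5-fold higher (chromosome 10, 67004798 to 67004857). Egr3, an EGR factor of muscle spindles and lymphocytes, read 22.4 ± 6.45 for MHs, which also failed the flag, and 1250 ± 125 for Sox9+EpCAM- cells, at least 30.02-fold higher (chromosome 14, 70479222 to 70479281). Both bounds, 5.63 and 4.91 on the log2 scale, lie above the difference of Egr1, except under normexp background correction, which gave 4.09 for Egr2 and 3.37 for Egr3 against 4.37 for Egr1. Being bounds, they give no order between Egr2 and Egr3. They rest on the lowest signal that passed the flag, and each MH reading plus its spot error goes past that signal. The bounds are therefore not firm lower limits.

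Ier3 is an inhibitor of apoptosis under NF-kB and ERK control. As scaled here, it had the highest Sox9+EpCAM- over MH ratio of the 19232 genes measured on both arrays (rank 1). This first place is not resolved, since Ctgf, at 7.20 on the log2 scale, lies within the Ier3 spot error of 0.30. The Ier3 probe (chromosome 17, 35959528 to 35959587) read 47.0 ± 8.52 for MHs against 11000 ± 1100 for Sox9+EpCAM- cells, a 156-fold difference or 7.29 on the log2 scale. Its MH spot passed the background flag but was dim, with a spot error of 18.1% of the signal, and normexp correction, which raises low signals by an offset of 50, gave a log2 difference of 6.04. Ier2, a nuclear protein induced by growth factors, was already bright in MHs and had the smallest difference of the 3 Ier genes. Its probe (chromosome 8, 87186214 to 87186273) read 2190 ± 219 for MHs against 29100 ± 2910 for Sox9+EpCAM- cells, 8.87-fold higher. Ier2 ranked 215 in the same order.

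Ier5, a regulator of heat shock factor that also binds phosphatase 2A, has 2 probes on chromosome 1 that disagreed. The probe at 156945765 to 156945824 read 53.6 ± 8.40 for MHs against 3370 ± 337 for Sox9+EpCAM- cells, 42.0-fold higher, which ranked 17. This MH spot was dim too, and normexp correction gave a log2 difference of 4.36 against 5.39. The probe at 156943530 to 156943589, 2235 bases away and nearer the 3′ end of this minus-strand gene, read 12.5 and 7.12 and was not well above background on either array. The RefSeq span of Ier5 is 3270 bases. The value for Ier5 rests on the brighter probe alone, and why the other gave no signal was not tested. The sequence of the brighter probe is printed with those of Ier2 and Egr3, these being the probes with the highest GC content (55.0% of 60 bases, against 21.7% to 41.7% for the other 8).
Ier5: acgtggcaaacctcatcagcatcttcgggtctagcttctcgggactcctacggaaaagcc
Ier2: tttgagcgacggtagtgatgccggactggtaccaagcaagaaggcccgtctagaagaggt
Egr3: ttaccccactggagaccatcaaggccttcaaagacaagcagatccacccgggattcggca

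The 2 ZFP36 genes differed in size. Zfp36, which encodes tristetraprolin, read 339 ± 34.7 for MHs against 5600 ± 560 for Sox9+EpCAM- cells (chromosome 7, 29161940 to 29161999), 11.0-fold higher and rank 151. Zfp36l1 read 4540 ± 454 and 19000 ± 1900 (chromosome 12, 81209022 to 81209081), 2.79-fold higher and rank 1312. Zfp36l1 was the only one of the 10 genes under the 4-fold rule, also under each of the 9 alternatives of scaling, background, probe and filter, where its log2 difference ran from 1.31 to 1.86. The other paralogs, Zfp36l2 and Zfp36l3, had log2 differences of 0.50 and -0.39, both within 1.5-fold.

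Btg2, which slows the cell cycle and is a target of p53, read 869 ± 87.1 for MHs against 21200 ± 2120 for Sox9+EpCAM- cells (chromosome 1, 135972094 to 135972153). This is a 16.3-fold difference, or 4.03 on the log2 scale, and rank 78. Myc, the driver of ribosome synthesis and growth, read 350 ± 35.4 and 32900 ± 3290 (chromosome 15, 61821417 to 61821476). Myc was 62.8-fold higher, a log2 difference of 5.97, and ranked 11. Both MH spots stood well clear of background, so that neither value rests on a bound.

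The differences of the 8 genes measured on both arrays spanned 55.9-fold, from Zfp36l1 to Ier3, with a median of 4.21 on the log2 scale, and with the 2 bounds included the median of the 10 was 4.65. Over all genes measured on both arrays the median was -0.19 and the 99th percentile 3.24, and 6 of the 8 lay in the top 1 percent. Only the spot errors estimated by the scanner software can be set against the order of the genes. On the Sox9+EpCAM- array they were 10% of the signal for each of the 10 genes, so they are not a measured spread. For a difference they came to between 0.20 and 0.30 on the log2 scale. Neighbours such as Zfp36 (3.46) and Ier2 (3.15), or Egr1 (4.39) and Btg2 (4.03), lie within 2 such errors. The variation between mice is not known. The 5 genes whose difference lay nearest to 4.21 were Socs3, Cox6b2, Ifrd1, C81189 and Nedd9, with log2 differences from 4.19 to 4.22. This likeness is in 1 difference between 2 arrays.

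**Figure D2:**
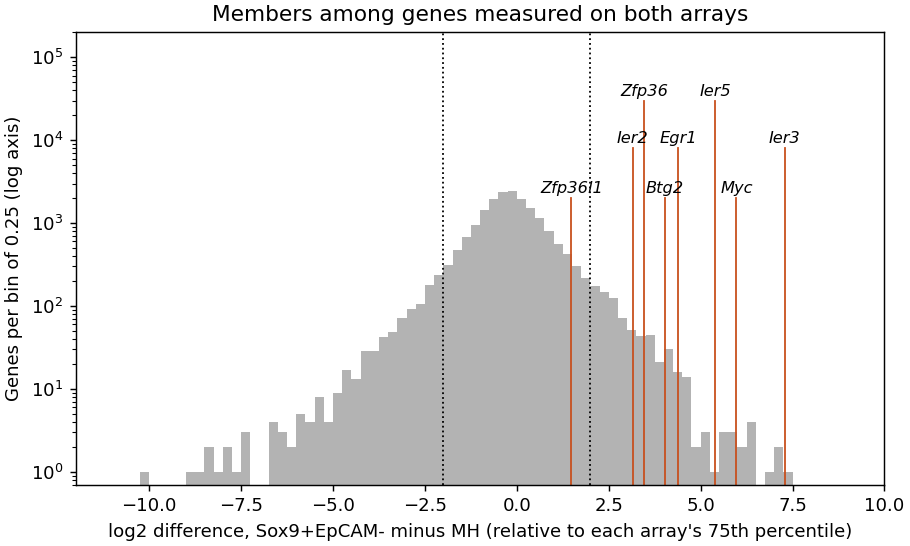
Number of genes (log axis) by log2 difference, Sox9+EpCAM- minus MH, for the 19232 genes well above background on both arrays, with vertical lines for the 8 early response genes measured on both. Dotted lines mark 4-fold; Ier3 (7.29) lies at the right end of the distribution and Zfp36l1 (1.48) inside it.

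Other rapidly induced genes were mostly higher as well. Of 35 such genes of the AP-1, NR4A, KLF, DUSP and related families, 22 (62.9%) were at least 4-fold higher and 0 at least 4-fold lower, and the median log2 difference was 3.05. Over all 23424 genes with a difference or bound, 5.59% were at least 4-fold higher and 5.57% at least 4-fold lower, and the median was -0.042. Among the 35 genes, the largest differences measured on both arrays were those of Ctgf (146.8-fold), Fosb (88.0-fold) and Junb (69.4-fold). Ctgf encodes a matrix protein induced by YAP and TGF-beta, and Fosb and Junb are AP-1 genes. The MH spot of Ctgf was dim, at 47.3. Dusp5, a nuclear ERK phosphatase, read 30.2 for MHs, which failed the background flag, and 17400 for Sox9+EpCAM- cells. Against that failed reading Dusp5 was 385-fold higher, which is not a lower limit. Fosl1, an AP-1 subunit, was at least 147-fold higher. Dusp5 and Fosl1 were picked out with their readings already known. The list was not uniform. Gadd45g and Ppp1r15a, stress-induced genes, had log2 differences of 0.44 each, and Dusp2, a MAP kinase phosphatase of lymphocytes, -1.08. Dusp1, a phosphatase that is itself a classical early response gene, had 0.60, a value also named after it was seen. This list was set down with results of these arrays known and is not independent of the 10 genes.

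Of the 8 near relatives with a difference, 2 were at least 4-fold higher, against 5.59% of all genes, and the others were all within 2-fold. Of 11 relatives on the array, 3 (Egr4, Btg4 and Mycn) were not well above background on either array. Of the 8 others, Btg3, a BTG/Tob antiproliferative protein, was at least 11.7-fold and Mycl1, the L-MYC gene, at least 5.96-fold higher, both with MH spots not well above background. The remaining 6 had log2 differences between -0.91 for Tob1 and 0.50 for Zfp36l2, with 0.12 for Btg1 and 0.0049 for Ier5l. The median of the 8 was 0.31.

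Upstream of the early response genes, the 26 signalling genes with a difference had a median log2 difference of 0.023. Of these, 1 was at least 4-fold higher and 1 at least 4-fold lower. These counts are not above the shares over all genes (5.59% higher, 5.57% lower). The higher gene was Srf, the CArG box factor. Its brighter probe read 1380 for MHs and 12400 for Sox9+EpCAM- cells, a log2 difference of 2.58. Its other probe gave a log2 difference of 5.11. The ribosomal S6 kinase gene Rps6ka3 and the GTPase gene Nras were higher by 1.56 and 1.46. Mapk14, which encodes p38 alpha, was 5.08-fold lower by its brighter probe, but its other probe gave 1.24, and Mkl1, an SRF coactivator, and Egfr had -1.58 and -0.87. Of the partners, Nab1 and Nab2, the corepressors of EGR proteins, had 0.014 and -0.11, and the probe of Max, the obligate partner of MYC, was not well above background on either array. Mxi1, a MAX-binding antagonist of MYC, was at least 9.36-fold lower, and Mga at least 4.32-fold higher. The median of the 9 partners with a difference was -0.11.

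Downstream genes were read by 4 lists. Of 11 EGR1 target genes, 6 were at least 4-fold higher, against 5.59% of all genes, with a median of 2.42. They include F3 (tissue factor, 17.1-fold), Pdgfb (9.56-fold) and Pdgfa (7.998-fold), genes of clotting and of platelet-derived growth factor, and, with a bound and named after its value was seen, Thbs1 (thrombospondin, at least 21.7-fold). Nab2, which EGR1 also induces, and Cdk5r1 had -0.11 and -0.93. The median was 0.037 when only the 9 genes above background on both arrays were counted. The other probe of F3 gave 8.54. The MH spots of Pdgfb (39.4) and Pdgfa (54.0) were dim, near the lowest signal that passed the background flag (27.8).

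Of 22 MYC target genes, all measured on both arrays, 0 were at least 4-fold higher and 1, Ccnd2 (cyclin D2, 4.16-fold lower), at least 4-fold lower. Over all genes these shares were 5.59% and 5.57%. The median of the MYC target genes was 0.018, and it ran from -0.16 in the deposited table to 0.40 under quantile normalization. Ddx21, Bop1 and Rrs1, factors of ribosome assembly, were higher by 1.51, 1.45 and 1.39 on the log2 scale, while Cad, of pyrimidine synthesis, and Odc1, of polyamine synthesis, had -1.42 and -0.95. Probes of Npm1, Ncl and Nme1, named for this after their values were seen, disagreed, with other probes up to 4.05, 3.04 and 3.40, against -0.17, 0.034 and 0.23 for their brightest ones.

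Of 16 messages that ZFP36 proteins are known to bind, 4 (Tnf, Il6, Ccl3 and Il10, named after their values were seen) were not well above background on either array, 2 of the other 12 were at least 4-fold higher, against 5.59% of all genes, and the median of the 12 was 0.19. Of these 12 values 7 are bounds, 3 of which entered as 0, and plain differences without the bound gave a median of 1.26. The higher ones were the chemokine genes Cxcl1 (22.0-fold) and Ccl2 (6.39-fold). Vegfa had -0.68 by its brighter probe and 0.42 by its other probe, and Il23a had -0.25. Of 15 p53 target genes with a difference, 3 were at least 4-fold higher, against the same 5.59%, and the median was 0.91. Gadd45a, of growth arrest, was 21.6-fold and Mdm2, the p53 ubiquitin ligase, 3.82-fold higher, while Cdkn1a, the p21 gene, was 2.69-fold higher by its brightest probe and had probes from -0.60 to 1.62. Ccng1, Ei24 and Perp had -0.47, -0.43 and -0.27.

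The 17 genes of deadenylation and decay, through which BTG2 and ZFP36 act, had a median of -0.20, with 1 at least 4-fold higher (Dcp1a, a decapping factor, 4.84-fold) and 1 at least 4-fold lower (Tnks1bp1, a CCR4-NOT partner, 5.42-fold). These counts are near the shares over all genes (5.59% higher, 5.57% lower). The deadenylase gene Cnot7, whose product binds BTG2 directly, was 1.92-fold higher, and the subunits Cnot3 and Rqcd1 were 2.38-fold and 2.78-fold lower. The medians of this list and of the partners turned to 0.066 and 0.16 under scaling to Gapdh, and that of the signalling genes to -0.064 in the deposited table.

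**Figure D3:**
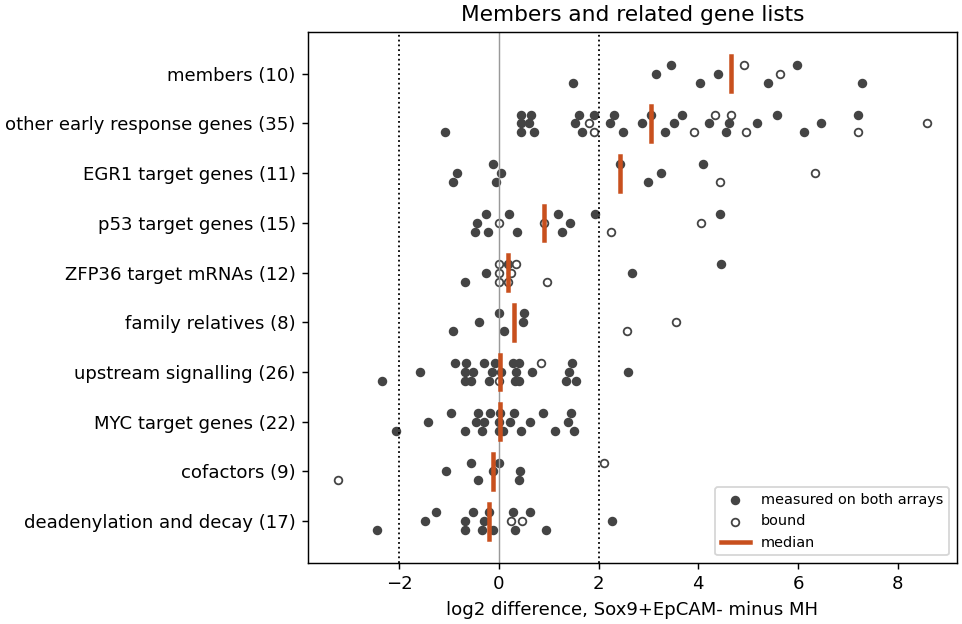
log2 difference, Sox9+EpCAM- minus MH, of each gene (points) of the early response genes and of 9 related lists, with the number of genes that have a difference in parentheses. Filled points were measured on both arrays, open points are bounds, orange bars are medians and dotted lines mark 4-fold; the medians of the 10 genes (4.65) and of the other early response genes (3.05) lie to the right, and those of the MYC targets (0.018) and the signalling genes (0.023) near 0.

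Markers of other cell types also differed between the arrays, and fewer cells of a type and less RNA per cell cannot be told apart in such bulk samples. Over all genes 5.59% were at least 4-fold higher and 5.57% at least 4-fold lower. Of 8 hepatocyte markers 0 were higher and 2 were at least 4-fold lower, with summed levels of 1083 for MHs and 486 for Sox9+EpCAM- cells. Of 10 leukocyte markers 1, Cd68, was higher and 9 were lower. Their summed levels were 42.0 for MHs and 15.9 for Sox9+EpCAM- cells, in units of the 75th percentile. Such sums add probes of unlike brightness and are led by the bright ones, here Csf1r, with a log2 difference of -0.42. Of 5 endothelial markers with a difference 0 were higher, with sums of 6.38 and 2.04 over 6 markers, Lyve1 being above background on neither array. Stellate and fibroblast markers were higher in 6 of 7, 4 of them by at least 4-fold, among them Col3a1 (85.1-fold), with sums of 11.7 and 46.1 over 8 markers. Lrat, which defines quiescent stellate cells, was above background for MHs only and Pdgfrb on neither array. Of 8 cholangiocyte markers 2, Spp1 and Epcam, were at least 4-fold higher, with sums of 3.22 and 49.96 in which Spp1 leads, while the keratin genes Krt19 and Krt7 had log2 differences of 0.42 and -0.23 and Cftr -1.001. Both erythroid markers with a difference were lower, with sums of 3.80 and 0.478, and Hbb-b1 was above background on neither array. Gates on CD31 and CD45, which remove endothelial cells and leukocytes, are given for other sorts of the study, and whether they were set for the cells of this array is not given in the sources used here. The part of these cells in the differences of the early response genes was not tested.

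**Figure D4:**
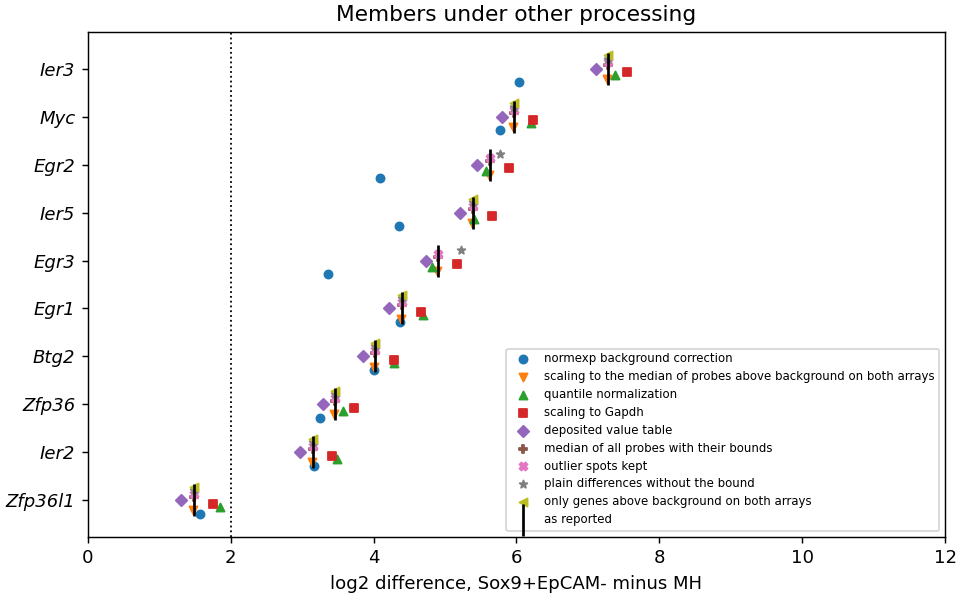
log2 difference of each of the 10 genes as reported (black bars) and under 9 alternatives of background correction, scaling, probe choice and filter (coloured symbols); the dotted line marks 4-fold. Zfp36l1 stays left of the line and the other 9 genes right of it wherever they have a value; normexp correction gives the lowest value for Ier3 (6.04), Egr2 (4.09), Ier5 (4.36) and Egr3 (3.37).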

How the data were processed

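Each array is an Agilent design with probes of 60 bases and coordinates on mm9. Spot intensities were deposited as Feature Extraction 10.7.3.1 wrote them, background-subtracted and detrended, with no normalization between arrays; a second deposited table holds ratio values, which are those intensities over their array's median (SD of the log2 factor 0.0018 on each array). Flags per spot were used as deposited.

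Intensities were scaled to the 75th percentile, taken to log2, and spots with outlier flags on either array were left out (39390 probes). The brightest probe stood for a gene. A probe not well above background on 1 array entered as a bound against the lowest signal that passed the flag there, or its own signal where higher (27.8 on the MH array, 18.4 on the Sox9+EpCAM- array), and a bound that gave no difference entered medians as 0. The 10 genes and all lists were chosen with earlier results of these data known. Genes named are the 10, their relatives and partners, markers, the 5 nearest genes and, per list, up to 3 with the largest and 3 with the smallest difference on both arrays; others are said to be named after their values were seen, and some genes of the lists are not reported here by name. Of 30153 gene names, 19975 are current RefSeq symbols, the 10 included. Python 3.11.15, pandas 2.3.3, numpy 2.4.6 and limma 3.58.1 in R 4.3.3 (normexp, offset 50) were used. The number of arrays limits the precision.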

Additional observations from a re-analysis of the deposited data

How the results depend on the processing

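No paired analysis was possible because neither group has a replicate, and for the same reason no replicate was left out and no slide block was run. The alternatives were tried on the 10 genes, the lists and the counts, and 197 of 211 values moved by less than 1.5-fold. This tally is no test of stability, since many values could hardly move. Scaling to Gapdh and the deposited table shift all genes by nearly the same small amount. Keeping outlier spots, or taking the median of all probes, left the value of each of the 10 genes as it was. The count of 9 genes at least 4-fold higher was 9 under 8 alternatives, 7 of the 8 genes left when both arrays had to be above background, 10 at a threshold of 2-fold and 8 at 10-fold. Normexp correction, whose offset compresses dim signals, gave a median of 4.05 for the 10 genes and counts of 612 genes at least 4-fold higher and 660 lower, against 1309 and 1304. It also changed the order, with Egr1 (4.37) above Ier5 (4.36) and Egr2 (4.09). Counting only genes above background on both arrays gave 758 genes higher and a median of 0.037 for the EGR1 targets. Plain differences without the bound gave a median of 1.26 for the ZFP36 targets, from MH signals not well above background. At 2-fold, 3319 genes were higher and 3918 lower, and at 10-fold 363 and 344. Scaling to Gapdh shifted the median of all genes by 0.27 and gave 1650 genes higher and 1006 lower, and the deposited table shifted it by -0.18. Signal over background limits Egr2 and Egr3, which have bounds, and the dim MH spots of Ier3 and Ier5.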
